A study of Mus musculus with 10 samples.

Results

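The 10 genes described here code for proteins that build, bind or steer microtubules in young neurons or sit in the growth cone, the motile tip of an extending axon: Stmn1, Stmn2, Stmn3, Stmn4, Gap43, Crmp1, Tubb3, Map2, Mapt and Dcx. They were taken by gene name from a table of 42465 gene models. The table gave 8 of them under their symbol. The other 2, Map2 and Mapt, stand there under an identifier only and were taken by the protein named in the table's description column. Of the 10 protein-coding models on either side of each, 10 for Map2 and 9 for Mapt also lie near that gene in the RefSeq gene order.

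The sequenced RNA came from mouse neural tube explants, isolated at embryonic day 9.5 and then cultured, which held neural crest cells, the migratory cells that give rise to pigment cells, glia and peripheral neurons. Explants of both genotypes, WT and Ednrb-/-, grew for 4 days in DMEM that held 20 nM EDN3 and 10% serum (FBS), with 5 biological replicates of each. EDN3 is a peptide that activates the endothelin receptor encoded by Ednrb. The labels give no strain, do not say which part of Ednrb was removed or in which cells, and do not say how many explants made up a replicate. Reads worked back from the deposited FPKM values (fragments scaled to gene length and library total) came to between 13022266 and 19532570 per library. Ednrb itself lay between 43.8 and 60.7 FPKM in WT and between 2.34 and 11.7 FPKM in Ednrb-/- libraries, so every library went with its label. Melanoblast proliferation is the subject that the title and design text give, and the design allows 1 comparison, that of the 2 genotypes.

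Microtubules are hollow tubes of alpha- and beta-tubulin that grow and shrink at their ends. In a neuron they fill the axon and dendrites, and their growth into the growth cone helps set the direction of the axon. Stathmins bind free tubulin dimers and favour shrinkage, whereas microtubule-associated proteins such as MAP2, tau and doublecortin bind along the tube and stabilise it. Most of these genes are switched on as neural tube progenitors leave the cell cycle and become neurons, and for that reason several of them serve as general markers of young neurons. Stmn1 is the exception, since dividing cells of many kinds use it too.

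RefSeq promoter sequences, of build GRCm38.p6, were at hand for 5 of the 10 genes. The 250 bases before the annotated start are shown side by side for 4 genes that were higher in the Ednrb-/- explants. Capitals mark CANNTG (the E-box, read alike on both strands), GGGCGG on either strand (the GC box) and TATAAA on either strand. They lie at chr8:123411303-123411552 on the plus strand (Tubb3), chr1:66175079-66175328 on the plus strand (Map2), chr2:181314501-181314750 on the minus strand (Stmn3) and chrX:143933220-143933469 on the minus strand (Dcx).
Tubb3: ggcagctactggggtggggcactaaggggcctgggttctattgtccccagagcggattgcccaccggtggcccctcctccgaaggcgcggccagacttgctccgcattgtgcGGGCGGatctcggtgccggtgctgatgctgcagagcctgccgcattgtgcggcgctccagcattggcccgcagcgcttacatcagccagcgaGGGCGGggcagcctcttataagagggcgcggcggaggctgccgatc
Map2: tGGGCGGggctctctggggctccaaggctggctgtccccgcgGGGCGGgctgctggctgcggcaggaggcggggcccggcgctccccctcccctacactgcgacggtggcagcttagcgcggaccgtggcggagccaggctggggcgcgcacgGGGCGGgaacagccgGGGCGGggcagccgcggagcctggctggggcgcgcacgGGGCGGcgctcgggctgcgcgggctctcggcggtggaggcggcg
Stmn3: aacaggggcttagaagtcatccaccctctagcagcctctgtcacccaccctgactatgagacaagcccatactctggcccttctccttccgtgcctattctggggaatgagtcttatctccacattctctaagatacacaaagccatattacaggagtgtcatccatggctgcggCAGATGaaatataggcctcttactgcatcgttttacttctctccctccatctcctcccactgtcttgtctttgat
Dcx: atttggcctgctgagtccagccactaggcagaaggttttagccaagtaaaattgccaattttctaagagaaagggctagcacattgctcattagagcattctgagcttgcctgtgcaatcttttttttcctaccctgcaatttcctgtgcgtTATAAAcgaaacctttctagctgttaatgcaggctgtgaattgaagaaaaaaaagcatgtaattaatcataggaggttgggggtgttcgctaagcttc
The Tubb3 window held 2 GC boxes and the Map2 window 5, at a GC content of 68.0% and 81.2%. The Stmn3 and Dcx windows held none, at 48.8% and 41.6%, where the median over all 32851 promoter windows of the table was 52.4%. A GC box was found in 32.7% of those windows, an E-box in 66.2% and TATAAA in 12.4%. The single E-box of Stmn3 and the single TATAAA of Dcx were the only other matches in the 4 windows. No match says only that these letters are not in these bases.

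Growth cone and neuronal microtubule genes were higher in the Ednrb-/- explants. Of the 10 genes, 8 rose and none fell (limma over all 15156 genes tested, Benjamini-Hochberg adjusted p under 0.05), where 6.53% of all genes tested rose and 13.0% fell, 19.5% together. The 2 that did not pass were Crmp1 and Mapt. For 5 of the 10 genes every Ednrb-/- library lay above every WT library, which held for 4.78% of all genes tested, and for none did every Ednrb-/- library lie below, which held for 8.44%. The log2 fold changes, taken on log2(FPKM + 0.5) as Ednrb-/- minus WT, ran from 0.25 to 0.77 with a median of 0.50, beside a median of 0.0048 over all genes tested. All 10 passed the filter on low values, and each rested on between 1425 and 36512 reads per library. In libraries made from whole explants and scaled to their total, a larger share of neurons and more RNA of these genes per neuron cannot be told apart. Nor can more neurons and fewer cells of other kinds.

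**Figure D1:**
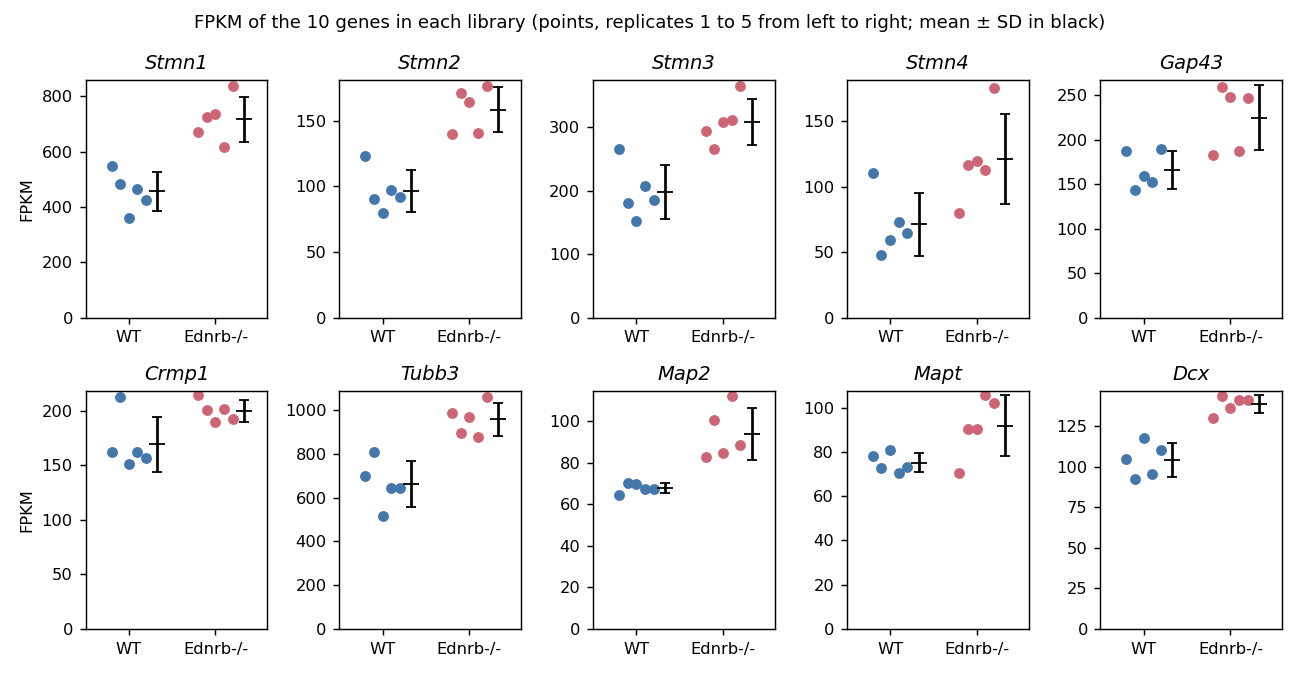
Level of each gene in FPKM (vertical axes, starting at 0) in the 5 WT and 5 Ednrb-/- libraries, 1 point a library, with the mean ± SD in black. The points of the 2 genotypes do not overlap for Stmn1, Stmn2, Tubb3, Map2 and Dcx, and overlap for Stmn3, Stmn4, Gap43, Crmp1 and Mapt.

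The stathmins showed the largest differences, and all 4 rose. Stmn1, the founding member, which is found in the cytosol of neurons and of dividing cells, held 548, 481, 360, 466 and 423 FPKM in WT replicates 1 to 5 and 669, 726, 735, 616 and 836 FPKM in Ednrb-/- replicates 1 to 5. All 5 Ednrb-/- libraries were above the highest WT library. Stmn1 averaged 456 ± 69.7 FPKM in WT and 716 ± 82.2 FPKM in Ednrb-/- (SD, n = 5 per genotype), and the log2 fold change was 0.66 ± 0.13 (standard error; limma, adjusted p = 0.00670). An exact permutation test, two-sided, gave p = 0.00794, the smallest value possible with 5 libraries in each group.

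Stmn2, also known as SCG10, is made almost only by neurons and is carried to the growth cone on membranes. In WT replicates 1 to 5 it stood at 123, 90.3, 79.7, 97.4 and 92.1 FPKM, and in Ednrb-/- replicates 1 to 5 at 140, 171, 164, 140 and 176 FPKM. The groups did not overlap here either. The log2 fold change was 0.72 ± 0.12 (standard error; limma, adjusted p = 0.00378; exact permutation p = 0.00794).

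Stmn3 and Stmn4, the remaining membrane-bound stathmins of neurons, rose with more scatter. Stmn3 held 266, 181, 152, 207 and 185 FPKM in the WT libraries and 294, 266, 308, 311 and 364 FPKM in the Ednrb-/- libraries, in replicate order. The groups met at WT replicate 1 and Ednrb-/- replicate 2, which lay within 1 FPKM of each other, and the log2 fold change was 0.66 ± 0.14 (standard error; limma, adjusted p = 0.00976). Stmn4 held 111, 48.1, 59.0, 73.0 and 64.5 FPKM in the WT libraries and 79.8, 116, 120, 113 and 175 FPKM in the Ednrb-/- libraries. WT replicate 1 lay above Ednrb-/- replicate 1 and near replicates 2 to 4, and Ednrb-/- replicate 5 stood highest.

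The mean of Stmn4 went from 71.0 ± 23.9 to 121 ± 34.3 FPKM (SD, n = 5 each). Its log2 fold change of 0.77 was the largest of the 10 genes and had the widest error, with a 95% confidence interval from 0.26 to 1.28 (limma, adjusted p = 0.0381). The call rested on single libraries. The adjusted p of Stmn4 was 0.0703, 0.0902, 0.0679 and 0.0849 without WT replicates 2, 3, 4 and 5 in turn, and 0.0685, 0.0758, 0.0536 and 0.0849 without Ednrb-/- replicates 2, 3, 4 and 5. It was 0.0767 with no filter on low genes and 0.0530 without a trend in the prior variance.

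The 2 growth cone genes outside the stathmin family moved less. Gap43 codes for neuromodulin, a calmodulin-binding protein on the inner membrane of the growth cone. It held 188, 143, 159, 153 and 190 FPKM in WT replicates 1 to 5 and 183, 260, 248, 188 and 247 FPKM in Ednrb-/- replicates 1 to 5. Ednrb-/- replicates 1 and 4 fell inside the WT range, and the other 3 lay above it. Gap43 rose by 0.43 ± 0.13 on the log2 scale (standard error; limma, adjusted p = 0.0407; exact permutation p = 0.0476). That call too was lost when WT replicate 2 (0.0729), 3 (0.0883) or 4 (0.0966) or Ednrb-/- replicate 2 (0.0881), 3 (0.0964) or 5 (0.0940) was left out, with no filter (0.0865) and without a trend (0.0557).

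Crmp1 belongs to the collapsin response mediator proteins, which carry semaphorin signals to the growth cone skeleton and bind tubulin. In WT replicates 1 to 5 it held 162, 213, 151, 162 and 157 FPKM, and in Ednrb-/- replicates 1 to 5 it held 215, 201, 190, 201 and 192 FPKM. WT replicate 2 lay among the Ednrb-/- libraries and the other 4 WT libraries lay below all of them. Crmp1 did not pass, with a log2 fold change of 0.25 and a 95% confidence interval from 0.028 to 0.47 (limma, adjusted p = 0.107; exact permutation p = 0.0397). Without WT replicate 2 the log2 fold change was 0.33 and the adjusted p was 0.00869, and with array weights the adjusted p was 0.0192.

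Among the microtubule genes, Tubb3, Map2 and Dcx rose with no overlap between genotypes. Tubb3, the beta-tubulin of neurons, held 701, 809, 518, 646 and 645 FPKM in WT replicates 1 to 5 and 987, 896, 971, 877 and 1061 FPKM in Ednrb-/- replicates 1 to 5. The lowest Ednrb-/- library was thus above the highest WT library, and the log2 fold change was 0.54 ± 0.13 (standard error; limma, adjusted p = 0.0153; 0.121 with no filter on low genes). Beta-tubulin genes are alike in sequence, and no source used here tells how reads matching several of them were counted.

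Map2, the microtubule-associated protein of dendrites and of the cell body, was the steadiest gene of the 10 in WT libraries, at 64.4, 70.3, 69.8, 67.6 and 67.4 FPKM. In Ednrb-/- replicates 1 to 5 it held 82.9, 101, 85.0, 112 and 88.9 FPKM. The SD was 2.34 FPKM around a mean of 67.9 in WT and 12.4 FPKM around a mean of 94.0 in Ednrb-/- (n = 5 each), and the log2 fold change was 0.46 ± 0.091 (standard error; limma, adjusted p = 0.00653). Dcx, the X-linked gene of doublecortin, which migrating and newly formed neurons use, held 105, 92.4, 118, 95.4 and 110 FPKM in WT and 130, 144, 136, 141 and 141 FPKM in Ednrb-/- libraries. All Ednrb-/- values lay above all WT values, and the log2 fold change was 0.42 ± 0.083 (standard error; limma, adjusted p = 0.00658).

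Mapt, the gene of the axonal protein tau, was the other gene that did not pass. Its WT libraries held 78.4, 72.9, 80.8, 70.6 and 73.1 FPKM and its Ednrb-/- libraries 70.7, 90.5, 90.6, 106 and 102 FPKM. Ednrb-/- replicate 1 sat at the bottom of the WT range and the other 4 above it. The log2 fold change was 0.28 with a 95% confidence interval from 0.042 to 0.51 (limma, adjusted p = 0.0944; exact permutation p = 0.0397). Without Ednrb-/- replicate 1 it was 0.37, with an adjusted p of 0.0147. The models of Map2 and Mapt each overlap an antisense model on the other strand, which reached 0.964 and 1.34 FPKM at most, and the sources used here give no setting for strand.

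**Figure D2:**
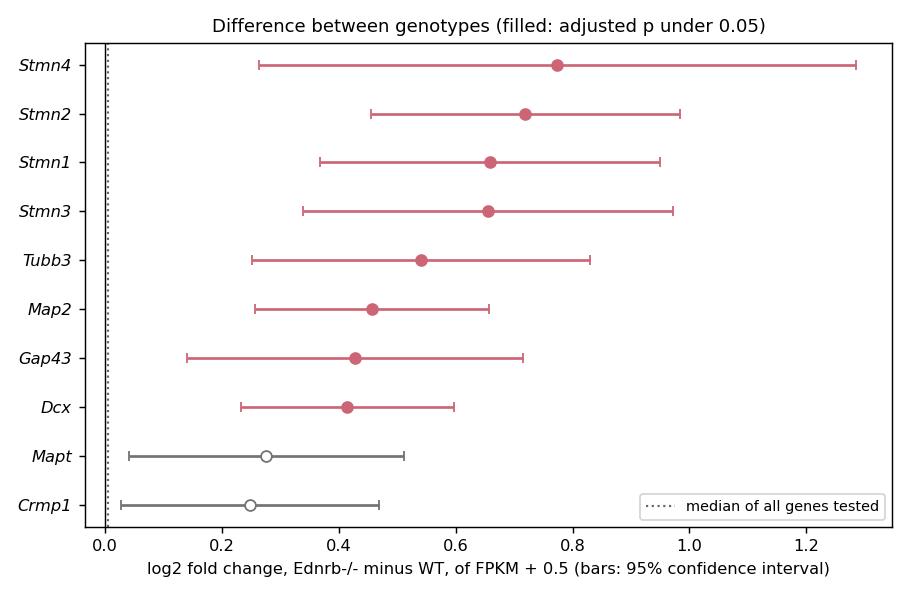
Log2 fold change of each gene, Ednrb-/- minus WT, of FPKM + 0.5 (horizontal axis), with its 95% confidence interval from limma. Filled points have an adjusted p under 0.05 (8 genes, from Dcx at 0.42 to Stmn4 at 0.77), the open points are Mapt and Crmp1, and the dotted line is the median of all genes tested.

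By level, in FPKM and therefore per length, the genes spanned an order from Tubb3, with a mean of 811 FPKM over the 10 libraries, to Map2, with 80.9 FPKM. All stood at or above the 96.4th percentile of the genes tested. Tubb3 was above Stmn1, and Stmn1 above Stmn3, in every library. Gap43 and Crmp1 could not be ordered, since each was the higher in some libraries of both genotypes. The same held for Stmn2 against Dcx and for Dcx against Stmn4. Mapt was above Map2 in 5 of 5 WT libraries and in 2 of 5 Ednrb-/- libraries. All 10 averaged above 50 FPKM, a level chosen after the values were seen. Among the 1129 genes tested with a mean of at least 50 FPKM, 162 rose (14.3%) and 114 fell. Their median log2 fold change was 0.096.

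Relative to Tubb3 in the same library, the ranges of most genes overlapped between the genotypes. The ratio of Stmn1 to Tubb3 ran from 0.595 to 0.782 in WT and from 0.678 to 0.810 in Ednrb-/- libraries, and that of Dcx from 0.114 to 0.227 and from 0.132 to 0.161. Of the 9 ratios to Tubb3, only that of Crmp1 separated the genotypes, at 0.231 to 0.292 in WT and 0.181 to 0.230 in Ednrb-/- libraries. The median ratio of Crmp1 went from 0.251 to 0.217, that of Gap43 from 0.268 to 0.233, that of Map2 from 0.105 to 0.0876 and that of Mapt from 0.112 to 0.0963. The ranges of Gap43, Map2 and Mapt overlapped all the same. These ratios were described and not tested. Within the stathmins, Stmn2 stood at 0.188 to 0.224 of Stmn1 in WT and at 0.209 to 0.236 in Ednrb-/- libraries, with medians of 0.218 and 0.223.

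Libraries of 1 genotype also differed among themselves, and in some of them the 4 stathmins lay on the same side of the mean. In WT replicate 1, Stmn1, Stmn2, Stmn3 and Stmn4 lay 0.28, 0.36, 0.45 and 0.69 above the WT mean on the log2 scale, and in WT replicate 3 they lay at -0.33, -0.26, -0.36 and -0.21. Ednrb-/- replicate 5 was above its genotype's mean by 0.23, 0.16, 0.25 and 0.58 for the same genes. Tubb3 lay on the same side in those 3 libraries, at 0.09, -0.34 and 0.15, and Map2 did not, at -0.07, 0.04 and -0.07. All 4 stathmins also lay below the mean in Ednrb-/- replicate 1, at -0.09, -0.17, -0.06 and -0.55. There Map2 (-0.17) was on their side and Tubb3 (0.05) was not. With smaller deviations, all 4 lay above the mean in WT replicate 4 and Ednrb-/- replicate 3 and below it in WT replicate 5. Tubb3 stood at -0.02, 0.02 and -0.03 in these libraries, and Map2 at -0.01, -0.13 and -0.01. The stathmins were split in others, at 0.09, -0.08, -0.11 and -0.50 in WT replicate 2, at 0.03, 0.12, -0.21 and -0.01 in Ednrb-/- replicate 2 and at -0.21, -0.17, 0.02 and -0.05 in Ednrb-/- replicate 4. Over all 10 libraries the profiles of Stmn1 and Stmn2 were the closest of the 45 pairs, with a root mean square difference of 0.086 in log2 after each gene was centred on its own mean, and those of Stmn4 and Crmp1 the farthest apart, at 0.53. Stmn1 was about as close to Tubb3 (0.13) as to Stmn3 (0.14), and farther from Stmn4 (0.31).

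**Figure D3:**
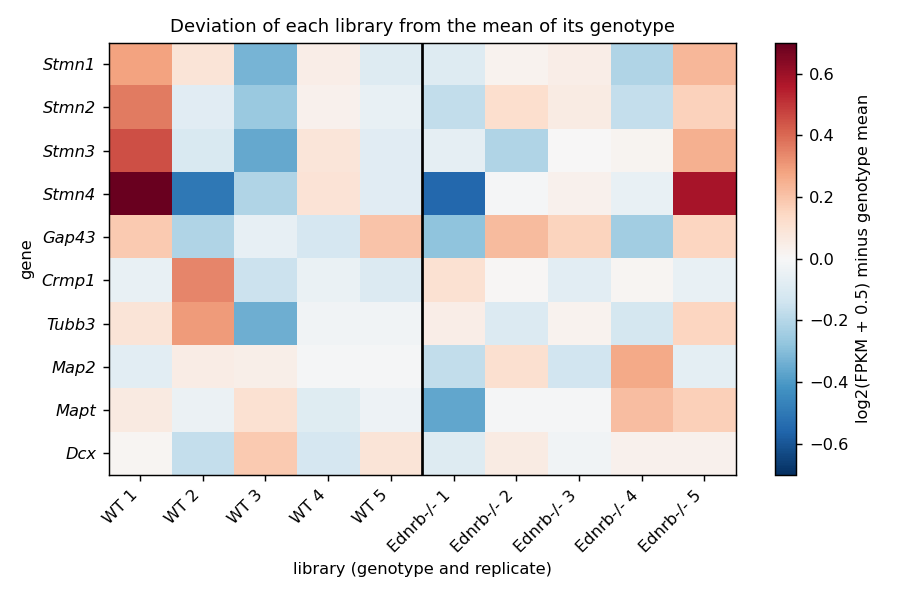
Deviation of each gene (rows) from the mean of its genotype in each library (columns, WT left of the line), in log2(FPKM + 0.5), red above and blue below. WT replicate 1 and Ednrb-/- replicate 5 are red for all 4 stathmins, WT replicate 3 is blue for them, and Crmp1 and Tubb3 are high in WT replicate 2.

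Measured the same way over the 10 libraries, other genes came close to these profiles. Among 5595 protein-coding genes of at least 10 FPKM, those nearest to Stmn2 were Zc4h2, Pfn2, a neuronal profilin, and Rab33a, at differences of 0.049, 0.073 and 0.091. Nearest to Stmn1 were Fez1, a kinesin adaptor of axon growth, Rab33a and Eif1b, at 0.059, 0.078 and 0.087. Tubb3 had Zscan21, Lrrc49 and Dbndd1, at 0.073, 0.087 and 0.092. The genotype difference is part of each profile, so genes that rose by a like amount come out as alike.

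Tubulin genes other than Tubb3 did not move as one. Of 10 tested, 1 rose, 1 fell and 8 did not pass, where 6.53% of all genes tested rose and 13.0% fell. Counts of 1 in 10 lie near these shares. The median log2 fold change of the 10 was 0.11. The models of Tubb2b and Tubb2a stand under an identifier only and were taken through the description column. Tubb2a was listed at no more than 4.31 FPKM, and how reads matching both were divided is not known. Tubb2b, the main beta-tubulin of the developing nervous system, rose from 1105 ± 182 to 1656 ± 268 FPKM (SD, n = 5 per genotype; limma, log2 fold change 0.58, adjusted p = 0.0255). Its adjusted p passed 0.05 in 5 of the 10 fits that leave out a library and reached 0.0727, being lost without WT replicate 3, 4 or 5 or Ednrb-/- replicate 3 or 5. Tubb6, a beta-tubulin of non-neuronal cells, fell from 47.7 ± 18.1 to 8.53 ± 4.15 FPKM (limma, log2 fold change -2.44, adjusted p = 0.00280), a call kept in all 10 of those fits. Tubb5, a beta-tubulin of most cells, averaged 917 FPKM in WT libraries and 1010 FPKM in the others and did not pass (limma, adjusted p = 0.472). The alpha-tubulin genes Tuba1b and Tuba1c could not be used, because their models lie on chromosome 12 in the file and on chromosome 15 in RefSeq. They were listed at no more than 0.0607 FPKM. Tuba1a, another alpha-tubulin gene, was not found, so the 10 tested hold none of these alpha-tubulins.

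Genes that act on microtubules beside these proteins rose in part. For this list and those that follow, 6.53% of all genes tested rose and 13.0% fell, with a median log2 fold change of 0.0048. Of 32 other microtubule-associated genes 6 rose and none fell, with a median log2 fold change of 0.12. Largest were Map7, which recruits kinesin-1, at 1.02, and the tubulin polymerization promoting genes Tppp3 and Tppp, at 0.73 and 0.47. Each of these calls was lost in 3 to 7 of the 10 fits without a library: Map7 without WT replicate 3 or 4 or Ednrb-/- replicate 3 (highest adjusted p 0.0679), and Tppp3 (0.0907) and Tppp (0.0793) without WT replicate 3, 4 or 5 or Ednrb-/- replicate 2, 3 or 5, and Tppp also without WT replicate 1.

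In the list of tubulin folding, modification and severing, 3 of 26 genes rose and none fell, with a median of 0.11. Spast, the gene of the severing enzyme spastin, went from 50.5 ± 2.32 to 65.1 ± 2.80 FPKM (SD, n = 5 per genotype; limma, adjusted p = 0.00460). Atat1, the alpha-tubulin acetyltransferase, and Vash2, a tubulin detyrosinating enzyme, rose by log2 fold changes of 0.28 and 0.29. The call of Vash2 was lost without WT replicate 1, 3, 4 or 5 or Ednrb-/- replicate 1, 2 or 5 (highest adjusted p 0.0739). Kinases and scaffolds that act on these proteins rose in 6 of 20 cases and fell in none, with a median of 0.15. They include Mapk10 and Mapk8, kinases of the JNK family, which phosphorylates stathmins and doublecortin, at 0.54 and 0.42, and Cdk5r1, the neuronal activator of the tau kinase CDK5, at 0.46.

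Axonal transport and growth cone genes outside the 10 showed the same mixture. Of 21 motor genes 5 rose and 1 fell, with a median of 0.12. Kif21a, Kif5a and Kif5c, the latter pair being heavy chains of kinesin-1 in neurons, rose by 0.51, 0.45 and 0.40, while Dync1i1, a dynein intermediate chain, went from 1.24 to 0.518 FPKM (limma, adjusted p = 0.0194, and up to 0.0612 without WT replicate 4). Of 21 other growth cone genes 5 rose and 2 fell, with a median of 0.26. Tagln3, a neuronal actin-binding protein gene, rose by 0.67 (limma, adjusted p = 0.0188; 0.0534 without WT replicate 5), Fez1 by 0.65 and Rufy3 by 0.57. Fez2 and Cap2 fell by 0.64 each on the log2 scale, that of Fez2 being lost without WT replicate 1, 3, 4 or 5 (highest adjusted p 0.0722).

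**Figure D4:**
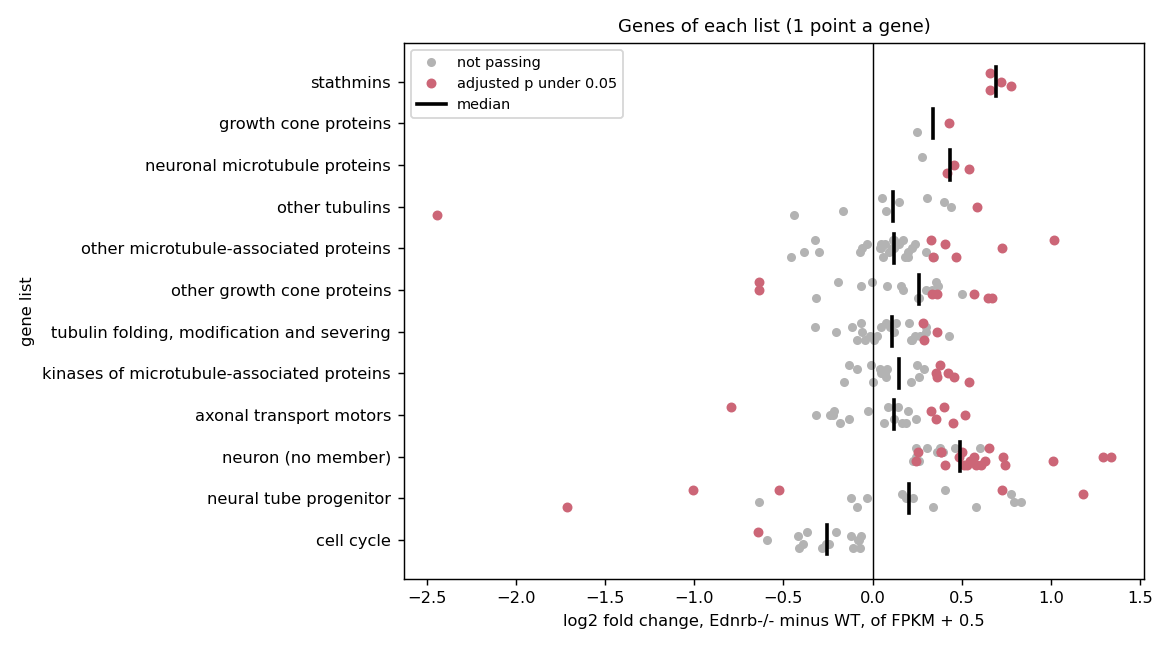
Log2 fold change, Ednrb-/- minus WT, of FPKM + 0.5 (horizontal axis) for the genes of each list, 1 point a gene, red where the adjusted p was under 0.05, with the list's median as a black bar. The first 3 rows hold the 10 genes, and the isolated point at -2.44 among the other tubulins is Tubb6.

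Neuronal markers were also higher in the Ednrb-/- explants, and most progenitor and cell cycle markers did not pass. In a list of 30 neuronal genes that holds none of the 10, 20 rose and none fell, with a median log2 fold change of 0.49, and their summed level ran from 1317 to 1540 FPKM in WT and from 1868 to 2266 FPKM in Ednrb-/- libraries. The most abundant of them were Ina, a neuronal intermediate filament gene, from 279 ± 14.7 to 411 ± 56.4 FPKM (SD, n = 5 per genotype; limma, adjusted p = 0.00555), and Uchl1, which did not pass (limma, adjusted p = 0.151). Of 18 neural tube progenitor genes 2 rose and 3 fell, with a median log2 fold change of 0.21. Their sums overlapped, at 909 to 1090 and 924 to 1060 FPKM, but the most abundant pair moved in opposite directions. Vim, an intermediate filament gene that mesenchymal cells express too, fell from 427 ± 67.7 to 211 ± 24.2 FPKM (limma, adjusted p = 0.00276). Fabp7, a lipid-binding protein gene of progenitors and glia, rose from 268 ± 88.8 to 427 ± 61.5 FPKM (limma, adjusted p = 0.0384), a call lost without WT replicate 3, 4 or 5 or Ednrb-/- replicate 2, 3 or 5 (highest adjusted p 0.0897). Of 16 cell cycle genes, which dividing cells express beside Stmn1, none rose and 1 fell, with sums of 348 to 544 FPKM in WT and 270 to 428 FPKM in Ednrb-/- libraries.

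Smooth muscle, fibroblast-like, melanocyte and epithelial markers were mostly lower in the Ednrb-/- explants. All 11 smooth muscle genes tested fell, with sums of 376 to 2785 FPKM in WT and 67.5 to 352 FPKM in Ednrb-/- libraries, as did 11 of 13 fibroblast-like genes (1 rose), from 219 to 1125 FPKM against 53.5 to 167 FPKM. Melanocyte genes fell in 8 of 9 cases and epithelial genes in 4 of 4. Glial genes fell in 8 of 11 cases (1 rose), with a median log2 fold change of -1.63. Of the 12 autonomic and sensory neuron genes 1 fell and none rose, with a median log2 fold change of 0.49. Of the 12 blood and endothelial genes 2 could be tested and 1 fell, and Hba-a1, Hbb-y and C1qa were listed at 0 in every library. The part of these shifts in the difference of the 10 genes was not tested. The covariates given next cannot decide it, because each separates the genotypes by itself. WT replicate 2 had the lowest smooth muscle level of the WT libraries, a mean log2 of 3.44 against 3.33 in Ednrb-/- replicate 4. Its Tubb3 (809 FPKM), Crmp1 (213 FPKM) and Map2 (70.3 FPKM) were the highest of the WT libraries. Its Stmn4 (48.1 FPKM), Gap43 (143 FPKM) and Dcx (92.4 FPKM) were the lowest, and Stmn1, Stmn2, Stmn3 and Mapt lay between. This is 1 library, and a link between smooth muscle level and these genes was not tested on it.

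With the mean of the 30 neuronal genes as a covariate the differences were mostly small beside their errors. Stmn2 stood at -0.012 with a standard error of 0.34, Tubb3 at 0.16 with 0.44 and Dcx at 0.39 with 0.29. The neuronal mean ran from 4.81 to 5.00 in WT and from 5.30 to 5.58 in Ednrb-/- libraries on the log2 scale, so it separates the genotypes by itself and leaves little to tell the 2 terms apart. With the smooth muscle mean as covariate Map2 and Dcx stood at 0.56 each, Stmn2 at 0.53 and Stmn1 at 0.29. Tubb3 stood at 0.10 and Crmp1 at 0.011, and the standard errors of these genes lay between 0.16 and 0.23. The smooth muscle mean ran from 3.44 to 5.67 in WT and from 1.70 to 3.33 in Ednrb-/- libraries. It too separates the genotypes by itself, so the same limit holds. No gene of the table passed with either covariate (limma; 300 and 1099 genes had an unadjusted p under 0.05, among them 0 and 3 of the 10).

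**Figure D5:**
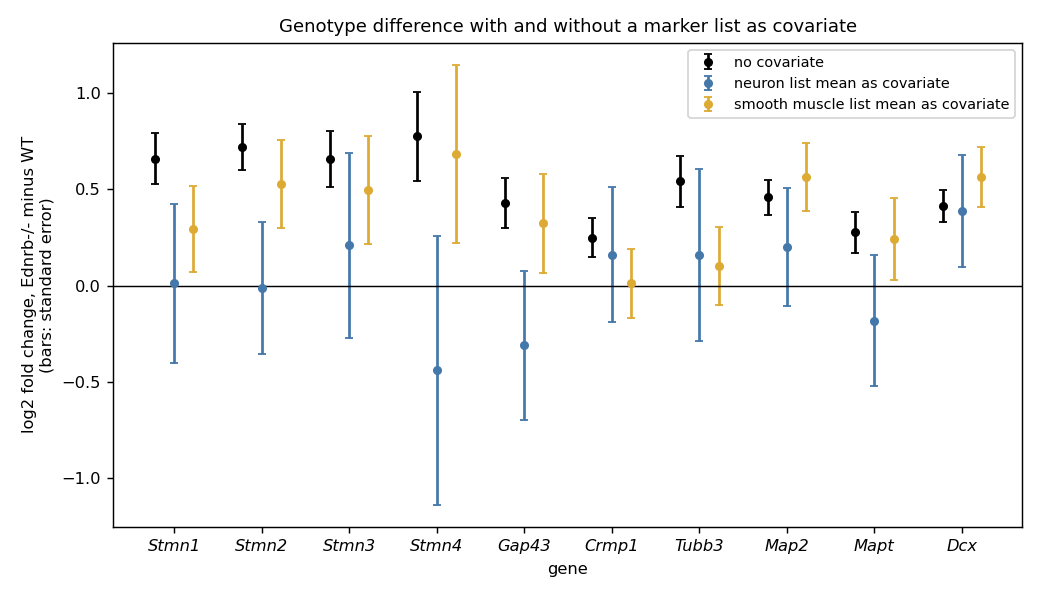
Log2 fold change of each gene, Ednrb-/- minus WT (vertical axis, bars show 1 standard error), without a covariate (black), with the neuronal list mean (blue) and with the smooth muscle list mean (yellow). The blue points have the longest bars and scatter around 0, and the yellow points of Map2 and Dcx lie above the black ones.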

How the data were processed

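RNA sequencing of 10 libraries, 5 WT and 5 Ednrb-/-, was used as 1 table of FPKM values deposited by the authors. Per the submitters' processing notes the tools were featureCounts 1.5.0-p3, HISAT2 2.0.5 and fastp, and the build was mm10. Their settings are not stated there. The gene identifiers are those of the C57BL/6NJ strain, so coordinates in the file were not mixed with those of RefSeq. Columns were matched by genotype and replicate number in the sample titles, and 0 value columns were left over. FPKM multiplied by gene length gave whole reads, within 0.01 of a read, for 100% of values.

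The test was limma 3.58.1 in R 4.3.3 on log2(FPKM + 0.5), two-sided, with a trend in the prior variance, over genes with at least 0.5 FPKM in at least 5 of the 10 libraries, adjusted by Benjamini-Hochberg over all 15156 genes. The scale understates the change of low genes. A gene is said to have risen or fallen where its adjusted p was under 0.05. The fit was tested on simulated data. Between replicates of a genotype the chi-square per gene averaged at least 13.5, where repeats of a library would give about 1. This sets them apart from repeats of 1 library only. Each was counted singly because the sample titles name biological replicates. The p-values weigh the genotype difference against the spread between these libraries.

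The 10 genes and the gene lists (9 pathway and 10 marker lists, 302 symbols, 301 of them found, 8 through the description column) were chosen with earlier results of these data known. Genes named besides the 10 are the 3 highest and 3 lowest past the threshold in each pathway list, the most abundant markers, and the 3 nearest profiles to Stmn1, Stmn2 and Tubb3. Tubb2a, Tubb5, Tuba1b, Tuba1c and the markers listed at 0 in every library (Hba-a1, Hbb-y and C1qa) were named after their values were seen. Tuba1a is named as the listed symbol that was not found. Of the most abundant markers only those of the neuronal and progenitor lists are named. Alternatives covered the pseudocount, filter, normalization, test, sample weights, replicate block, 2 covariates, gene type and leaving out each library.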

Additional observations from a re-analysis of the deposited data

Results flagged for a closer look

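Crmp1 in WT replicate 2 stood apart from its group. The library held 213 FPKM where the other 4 WT libraries held 151 to 162 FPKM, and its gap to the nearest of them was 0.820 of the group's whole range, above Dixon's 95% critical value of 0.71 for 5 libraries. Of 20 groups examined, 10 genes in each genotype, this was the only one, and chance flags about 1 in 20. The same library had the highest Tubb3 of the WT libraries (809 FPKM) and the lowest Stmn4 (48.1 FPKM).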

How the results depend on the processing

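Of the 10 genes, 8 rose under either other pseudocount, a filter of 1 FPKM, quantile normalization, TPM rescaling, voom on the recovered reads and protein-coding genes only. Their median log2 fold change was 0.43 under quantile normalization, 0.48 under TPM rescaling and 0.51 by voom. The count was 6 without a trend, 9 with array weights, 5 with no filter, and from 6 to 9 when 1 library was left out. With the neuron or smooth muscle covariate it was 0. The labels do not say that shared replicate numbers mark pairs. Deviations of same-numbered libraries correlated at between -0.16 and 0.15, which cannot settle whether they were paired. With the replicate number as a block, 5 of the 10 genes rose (Stmn4, Gap43 and Tubb3 no longer passed, adjusted p = 0.0983, 0.0989 and 0.0679), and 1877 genes were called, 419 of them higher. None of the 10 fell under any of these settings.

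Over all genes, 2956 were called, 990 higher and 1966 lower. Leaving out 1 library gave 1898 to 3240 calls, of which 511 to 1151 were higher. The higher count was 659 with no filter, 1684 with array weights and 1603 under quantile normalization (1730 lower). With either covariate 0 were called. With the neuron covariate, Stmn2 (-0.012), Stmn4 (-0.44), Gap43 (-0.31) and Mapt (-0.18) changed sign, with standard errors of 0.34, 0.70, 0.38 and 0.34. Except for the covariates, which share variance with the genotype, the cause of these shifts was not tested. At 1425 reads or more per library, counting error adds little to the spread between libraries, and the number of libraries limits the precision.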
